A study of Homo sapiens with 12 samples.

Results

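Keratins and epidermal differentiation genes were examined in oral squamous cell carcinoma (OSCC) cells with and without rapamycin, an inhibitor of the mTOR kinase that induces autophagy. The 45 member genes were taken from a list of symbols and matched to Ensembl identifiers, out of 58302 identifiers in the count table. They comprised 4 simple epithelial keratins, 3 basal keratins, 5 stress keratins, 4 suprabasal keratins, 3 other keratins (KRT75, KRT80 and KRT81), 11 genes of the cornified envelope, 4 S100 proteins, 3 proteases or protease inhibitors of the epidermis and 8 desmosome genes. RNA-seq was performed on 4 libraries, 2 from cells treated with 100 nM rapamycin (rapamycin 1 and 2) and 2 from control cells (control 1 and 2). MeRIP-seq enriches RNA fragments carrying N6-methyladenosine (m6A) by an antibody and sequences them beside the input RNA. It was performed on HSC3 and CAL33 cells, both established human OSCC lines, with and without 100 nM rapamycin for 3 days.

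Keratins form the intermediate filaments of epithelial cells and work as pairs of a type I and a type II protein. In stratified epithelium the basal layer uses KRT5 with KRT14 or KRT15, the layers above it use KRT1 with KRT10 in skin and KRT4 with KRT13 in the lining of the mouth, and wounded or tumour epithelium uses KRT6, KRT16 and KRT17. KRT8, KRT18, KRT7 and KRT19 are the keratins of simple epithelium. Terminally differentiating cells build a cornified envelope in which transglutaminases crosslink involucrin, loricrin and the small proline-rich SPRR proteins. Desmosomes tie keratin filaments of neighbouring cells together through the cadherins DSG and DSC, the plakins and plakoglobin (JUP).

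Which line each RNA-seq library came from could not be settled. By their labels rapamycin 1 and 2 are HSC3 and control 1 and 2 are CAL33, but the labels of the MeRIP-seq libraries use number 1 for HSC3 and number 2 for CAL33 under either treatment. If the RNA-seq labels are right, the effects of rapamycin and cell line cannot be told apart. The correlation of log2 CPM (counts scaled to library size) across 15826 tested genes was 0.97 between the number 1 libraries and 0.96 between the number 2 libraries, against 0.76 to 0.81 for the other pairs of libraries, a description over genes that are not independent. The RNA-seq values are therefore given by number, rapamycin was compared with control within numbers, and no cell line was assigned to a number. The labels do not say whether the libraries came from separate cultures, so the p-values measure only the spread between these libraries. In bulk RNA, fewer cells of a type and less RNA per cell cannot be told apart.

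Library totals ranged from 18492273 to 23763098 counts, and mitochondrial genes took 5.71% to 7.94% of them. All 10 squamous epithelium markers, 4 of which are also members, were tested. In the order rapamycin 1, rapamycin 2, control 1 and control 2, their summed CPM was 2218, 2580, 2678 and 4659. Of these sums, KRT5, itself a member, made up 6.10, 327, 34.2 and 1703 CPM. TP63, a transcription factor of the squamous lineage, was at 13.5, 353, 19.7 and 332 CPM in that order, so it was low in both number 1 libraries. The list was mixed: 4 of the 10 markers, TP63 among them, were called higher in number 2, and 1, CDH1, higher in number 1. Of all tested genes, 17% were called higher in number 2 and 20.2% higher in number 1. KRT14, among the 4, had 0 counts in both number 1 libraries. It passed the low-count filter only through number 2, which fixed its direction. CDH1 was at 304, 221, 334 and 180 CPM in the same order. The 8 mesenchymal markers summed to 15436, 64.8, 9072 and 58.1 CPM, of which FN1 alone made up 14823 in rapamycin 1 and 8205 in control 1. Of the 8, 6 were called higher in number 1, where 20.2% of all tested genes were. TWIST1 and SNAI2 were not called between numbers (edgeR adjusted p = 0.37 and 0.65). ZEB1 and ZEB2, among the 6, lay under the low-count filter's cutoff of 0.495 CPM in both number 2 libraries, which fixed their direction. Vimentin (VIM) was at 385 and 544 CPM in the number 1 libraries and at 4.94 and 6.72 in number 2. Of the 6 fibroblast markers, COL1A2, COL3A1 and DCN had 0 counts in each library. The summed fibroblast level was 46.7, 28.5, 35.8 and 8.79 CPM, and the 6 leukocyte markers summed to 0.169 to 0.658 CPM with PTPRC at 0. The endothelial list summed to 1.42, 45.4, 1.71 and 30.8 CPM, of which CDH5 made up 41.6 and 25.6 CPM in rapamycin 2 and control 2. The 5 melanocyte markers summed to 11.2 to 25.0 CPM, with TYR and MLANA at 0, MITF at 7.78 to 20.9 and PMEL at 2.75 to 4.44. The part of these markers in the differences between numbers was not tested.

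Of the 45 members, 33 had enough counts to be tested and 12 did not. KRT1, LOR, FLG, TGM3 and DSG1, which mark the upper layers of the epidermis, had 0 counts in all 4 libraries. With a floor of 3 counts, this limits each of them to 0.162 CPM of the total counts, without TMM scaling, in rapamycin 1, the library with the lowest total. A further 7 members had a few counts and were left out by the filter. KRT6B had 7 counts in rapamycin 2 and 32 in control 2, and 0 in both number 1 libraries. SPRR3 had 11 counts and KRT75 had 10, all of them in control 2. KRT6C had 2 counts and SPRR1A had 1, also in control 2 alone. SPRR2A and KLK7 had at most 6 and 5 counts in a library. With no filter on low counts, KRT6B was called higher in number 2 (edgeR adjusted p = 0.00025), and the other 6 were not called between numbers.

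**Figure D1:**
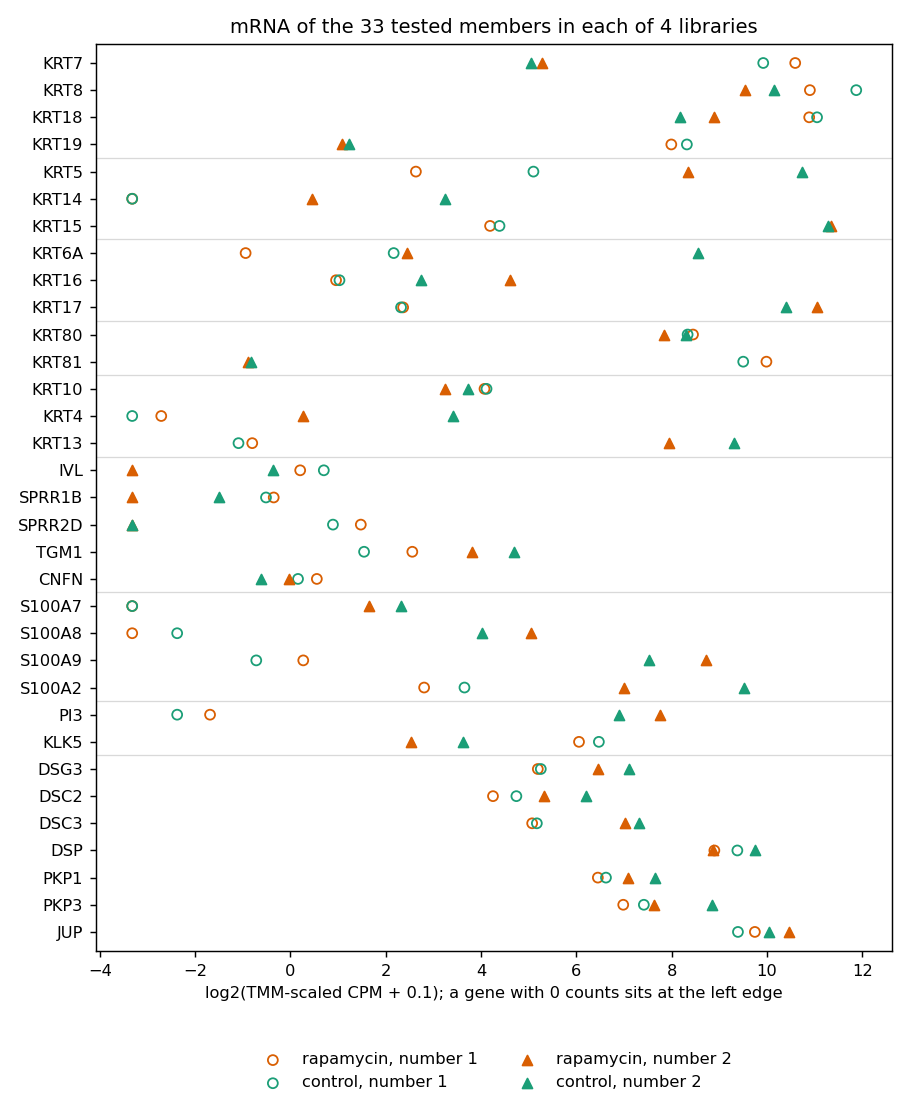
mRNA level of each of the 33 tested members in the 4 RNA-seq libraries, grouped by role from simple keratins (top) to desmosome genes (bottom). The horizontal axis is log2 of the TMM-scaled CPM plus 0.1, circles are number 1, triangles are number 2, orange is rapamycin and green is control, and equal values lie on top of each other. KRT19 and KRT81 sit far to the right in number 1, KRT15, KRT17, KRT13, S100A9 and PI3 sit far to the right in number 2, and the desmosome genes of all 4 libraries lie close together.

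Rapamycin and control were compared with the number as a block. Of the 33 tested members, 5 were lower with rapamycin (KRT5, KRT14, KRT6A, KRT4 and S100A2) and 1 was higher (S100A9), by edgeR's quasi-likelihood test at an adjusted p under 0.05. The 5 lower members were 15.2% of those tested, where 3.5% of all 15826 tested genes were called lower, and the 1 higher member was 3.03%, where 4.65% of all genes were called higher. In either direction 18.2% of the members and 8.15% of all genes were called. Without the number as a block, edgeR called 0 members and 0% of all genes, while the unadjusted p was under 0.05 for 0 members and 446 genes. With the block, 13 of the 33 members had an unadjusted p under 0.05. In the same fit with the KRT6 copies summed, so did 3736 of all 15826 tested genes. DESeq2 with the block called 5 members and 818 genes. The median log2 change was -0.25 over the members and 0.05 over all tested genes. The log2 change was negative in both numbered pairs for 14 of the 33 members, against 31.8% of all tested genes. It was positive in both for 6 members, for which no share of all genes was taken.

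KRT5 (ENSG00000186081, chromosome 12: 52514575-52520394, GRCh38), the type II keratin of basal cells, was at 6.10 CPM in rapamycin 1, 34.2 in control 1, 327 in rapamycin 2 and 1703 in control 2. It was lower with rapamycin in both numbers, by similar factors from levels far apart. The fitted log2 change was -2.43 ± 0.27 (SE), a 5.39-fold lower level (edgeR adjusted p = 6.1e-06), with -2.48 within number 1 and -2.38 within number 2.

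KRT14 (ENSG00000186847, chromosome 17: 41582279-41586895), the type I partner of KRT5, was at 1.26 CPM in rapamycin 2 and 9.34 in control 2, with 23 and 221 counts. Both number 1 libraries had 0 counts, so the call rests on number 2 alone. The log2 change was -2.85 ± 0.83 (SE, edgeR adjusted p = 0.033). Number 2 holds 1 library per treatment, so this p measures no spread between libraries for KRT14. It draws on the spread estimated over other genes, and DESeq2 gave KRT14 no adjusted p. KRT15, the other type I basal keratin, was at 18.1 CPM in rapamycin 1, 20.8 in control 1, 2603 in rapamycin 2 and 2504 in control 2. The treated and control libraries of each number lay close together, with a log2 change of -0.07 ± 0.27 (SE, edgeR adjusted p = 0.91). Of the 3 basal keratins, KRT5 and KRT14 thus passed the test and KRT15 did not, and the difference between these genes was not tested.

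KRT6A (ENSG00000205420, chromosome 12: 52487176-52493257), a keratin of wounded and hyperproliferative epithelium, was at 0.421 CPM in rapamycin 1, 4.39 in control 1, 5.38 in rapamycin 2 and 374 in control 2. It was lower with rapamycin in each number, and control 2 stood far above the other 3 libraries. The log2 change was -5.46 ± 0.62 (SE, edgeR adjusted p = 0.0037), with -3.36 within number 1 (8 against 95 counts) and -6.12 within number 2 (98 against 8849 counts). KRT6A, KRT6B and KRT6C are near-identical copies whose reads the counting could split. Summed over the 3 genes, the log2 change was -5.38 (edgeR adjusted p = 0.0027). The partner keratins KRT16 and KRT17 did not pass the test. KRT16 was at 1.84 CPM in rapamycin 1, 1.94 in control 1, 24.4 in rapamycin 2 and 6.59 in control 2, with a log2 change of 1.01 ± 0.50 (SE, edgeR adjusted p = 0.22). Pseudogenes of KRT16 took 11.6% of the counts of KRT16 and its pseudogenes together, which makes its values less certain. KRT17 was at 5.05, 4.89, 2119 and 1346 CPM in the same order, with a log2 change of 0.38 ± 0.28 (SE). KRT14, KRT16 and KRT17 are also close copies of each other, so that reads between them are uncertain.

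KRT4 (ENSG00000170477, chromosome 12: 52806549-52814116), a suprabasal keratin of the oral lining, had 20 counts (1.10 CPM) in rapamycin 2 and 249 (10.5 CPM) in control 2. Number 1 had 1 count with rapamycin and 0 without, so the call again rests on number 2. The log2 change was -2.86 ± 0.87 (SE, edgeR adjusted p = 0.044). As for KRT14, this p draws on the spread estimated over other genes, and DESeq2 gave no adjusted p. With upper-quartile normalization the adjusted p was 0.055. KRT13, the partner of KRT4, was at 248 CPM in rapamycin 2 and 633 in control 2, and at 0.473 and 0.369 in rapamycin 1 and control 1. Its log2 change of -1.0 ± 0.36 (SE) did not pass the test (edgeR adjusted p = 0.086). KRT10 was at 16.7, 17.2, 9.44 and 13.1 CPM in rapamycin 1, control 1, rapamycin 2 and control 2, with a log2 change of -0.25 ± 0.36 (SE).

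S100A2 (ENSG00000196754, chromosome 1: 153561108-153565844), a calcium-binding protein of basal keratinocytes, was at 6.89 CPM in rapamycin 1, 12.5 in control 1, 129 in rapamycin 2 and 735 in control 2. It was lower with rapamycin in both numbers, with a log2 change of -0.86 within number 1 and -2.52 within number 2. The fitted log2 change was -1.74 ± 0.37 (SE), a 3.33-fold lower level (edgeR adjusted p = 0.017). S100A9 (ENSG00000163220, chromosome 1: 153357854-153361023), which forms calprotectin with S100A8 and is raised in inflamed epithelium, was at 1.10 CPM in rapamycin 1, 0.508 in control 1, 420 in rapamycin 2 and 184 in control 2. It was higher with rapamycin in both numbers, by 1.11 and 1.19 on the log2 scale. The fitted log2 change was 1.17 ± 0.31 (SE), a 2.25-fold higher level (edgeR adjusted p = 0.019), and number 1 held 21 and 11 counts. S100A8 had 598 counts in rapamycin 2 and 382 in control 2, and 0 and 2 counts in number 1. Its log2 change of 0.78 ± 0.55 (SE) did not pass (edgeR adjusted p = 0.42), nor did that of S100A7, at 3.02 CPM in rapamycin 2, 4.90 in control 2 and 0 in number 1.

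The sequences just upstream of 4 member genes are shown from the RefSeq table (GRCh38.p14). The first 3 belong to members that passed the test with the same direction in both numbers, and IVL, which encodes the envelope protein involucrin, represents the cornified envelope genes. Each runs 5′ to 3′ over the 250 bases before the transcription start. Capitals mark TGANTCA, a form of the AP-1 motif that reads the same on both strands, and TATAAA, searched on the strand of the gene. KRT5 lies at chr12:52520395-52520644 on the minus strand, S100A2 at chr1:153565845-153566094 on the minus strand, S100A9 at chr1:153357604-153357853 on the plus strand and IVL at chr1:152908296-152908545 on the plus strand.
KRT5: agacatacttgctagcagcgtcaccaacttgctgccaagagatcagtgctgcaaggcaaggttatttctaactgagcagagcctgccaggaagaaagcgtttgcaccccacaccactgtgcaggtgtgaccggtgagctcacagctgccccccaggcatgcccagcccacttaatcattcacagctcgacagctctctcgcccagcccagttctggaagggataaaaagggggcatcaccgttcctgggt
S100A2: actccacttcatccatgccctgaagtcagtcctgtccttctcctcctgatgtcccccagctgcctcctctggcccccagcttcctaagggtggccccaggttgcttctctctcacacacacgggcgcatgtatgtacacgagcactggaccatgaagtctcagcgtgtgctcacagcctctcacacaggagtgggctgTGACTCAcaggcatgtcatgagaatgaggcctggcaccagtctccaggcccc
S100A9: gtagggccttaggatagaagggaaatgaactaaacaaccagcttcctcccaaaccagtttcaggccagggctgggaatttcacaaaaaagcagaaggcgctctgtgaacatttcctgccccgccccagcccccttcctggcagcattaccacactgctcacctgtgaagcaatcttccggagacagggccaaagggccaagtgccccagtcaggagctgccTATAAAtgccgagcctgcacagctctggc
IVL: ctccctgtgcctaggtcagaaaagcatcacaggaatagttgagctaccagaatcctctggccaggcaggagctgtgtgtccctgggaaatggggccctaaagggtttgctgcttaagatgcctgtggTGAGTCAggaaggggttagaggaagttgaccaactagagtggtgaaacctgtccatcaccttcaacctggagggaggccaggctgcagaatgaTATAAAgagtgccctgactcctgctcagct

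Neither motif was found upstream of KRT5 by these letters. S100A2 held TGANTCA starting 52 bases before its start, while an entry for a second start of the gene held neither motif. S100A9 held TATAAA from 29 bases before the start, and IVL held TGANTCA at 123 and TATAAA at 30 bases before the start. The table had entries for 27 members, 5 of them with more than 1 start. Each of the 7 cornified envelope members of chromosome 1 with an entry (FLG, IVL, SPRR1A, SPRR1B, SPRR2A, SPRR3 and LOR) held TGANTCA, against 1 of the other 20 members and 6.57% of all 35116 entries. TATAAA was found in 5 of those 7, in 5 of the other 20 and in 6.8% of all entries. These are matches of letters in a window, described without a test. KRT4 had an entry, not shown, with neither motif, and KRT6A and KRT14 had none.

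**Figure D2:**
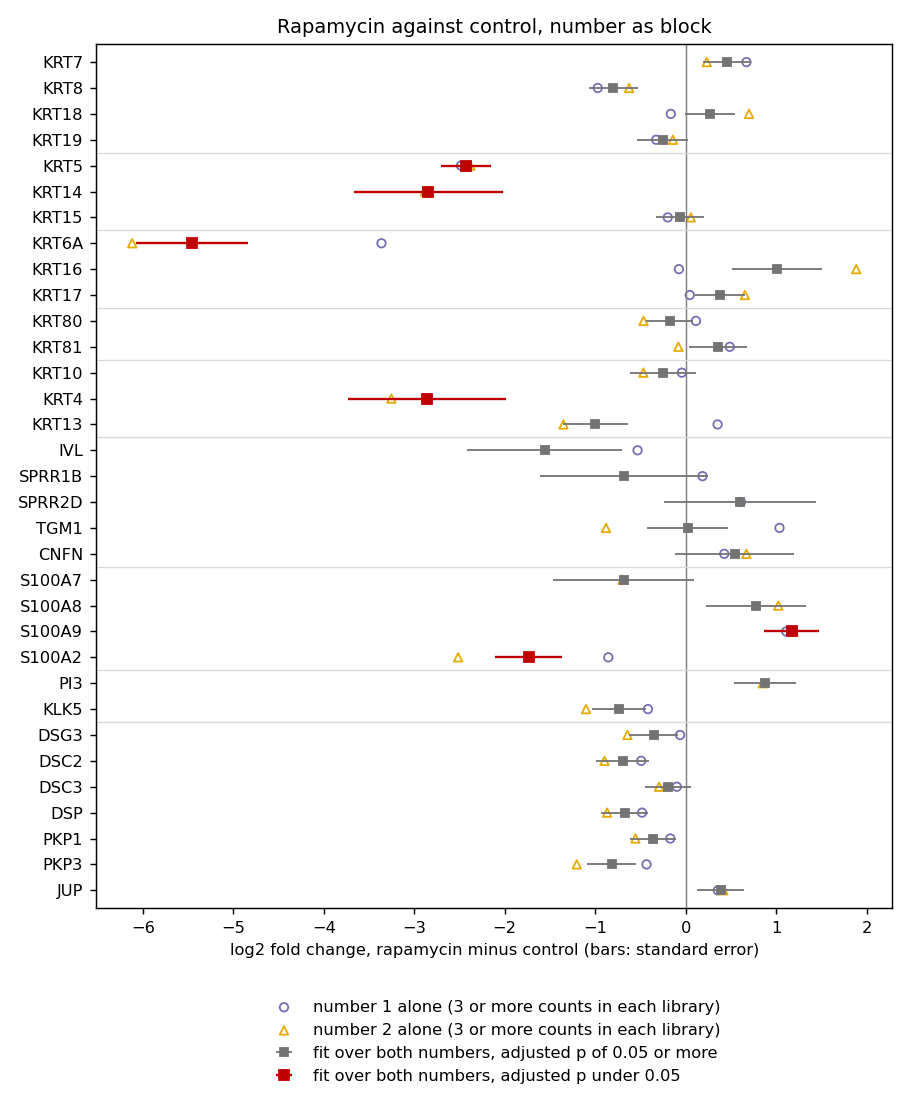
Log2 fold change of the 33 tested members, rapamycin minus control, with the number as a block. Squares are the fitted values with their standard error (red where the edgeR adjusted p was under 0.05), and open circles and triangles are the change within number 1 and number 2 where each library had 3 or more counts. KRT6A lies farthest to the left at -5.46, S100A9 is the red square to the right of 0, and most desmosome genes lie between -0.82 and 0.

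The other 27 tested members did not pass the test. Among the 4 simple epithelial keratins, which are the keratins of glandular and embryonic epithelium, KRT8 had the lowest adjusted p. It was at 1913 CPM in rapamycin 1, 3755 in control 1, 739 in rapamycin 2 and 1140 in control 2, lower with rapamycin in both numbers. Its log2 change was -0.80 ± 0.27 (SE, edgeR adjusted p = 0.061), and DESeq2 gave an adjusted p of 0.020. KRT18, its partner, was at 1894, 2123, 472 and 291 CPM in the same order, with a log2 change of 0.27 ± 0.28 (SE). The annotated spans of KRT8 (ending at 52949860 on chromosome 12) and KRT18 (starting at 52948855) overlap, and whether the counting used strand is not stated. KRT8 pseudogenes took 0.795% of the counts of KRT8 and its pseudogenes. KRT7 and KRT19 had log2 changes of 0.46 ± 0.26 and -0.25 ± 0.28 (SE).

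Of the 7 tested desmosome genes, 0 passed the test, and 6 had a negative log2 change, where 47.0% of all tested genes had one. Whether the desmosome genes shared a direction was not tested. PKP3, a plakophilin of the desmosomal plaque, was at 126 CPM in rapamycin 1, 171 in control 1, 199 in rapamycin 2 and 458 in control 2. Its log2 change was -0.82 ± 0.27 (SE, edgeR adjusted p = 0.056). DSP, the plakin that anchors keratin filaments, was at 476, 666, 469 and 856 CPM in the same order, with a log2 change of -0.68 ± 0.26 (SE, edgeR adjusted p = 0.11). JUP was the exception at 859, 672, 1410 and 1057 CPM, with a log2 change of 0.39 ± 0.26 (SE). The cadherins DSG3, DSC2 and DSC3 had log2 changes of -0.36, -0.70 and -0.20, and PKP1 had -0.36.

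The 5 tested cornified envelope genes were low. IVL was at 1.05 CPM in rapamycin 1, 1.52 in control 1, 0 in rapamycin 2 and 0.676 in control 2, and the summed level of all 11 envelope members was 11.9, 7.8, 14.9 and 27.9 CPM in that order. Most of it in number 2 came from TGM1, the transglutaminase of keratinocytes, which was at 5.78, 2.82, 14 and 25.8 CPM. None of the 5 passed the test. The fitted log2 change of IVL was -1.56 ± 0.85 (SE), but rapamycin 2 had 0 counts against 16 in control 2, and within number 1 the change was -0.53. SPRR1B likewise had 0 counts in rapamycin 2 against 6 in control 2, and a change of 0.19 within number 1. SPRR2D, at 0 counts in number 2, had a log2 change of 0.60 ± 0.84 (SE) that rests on number 1 alone. Among proteases and inhibitors, PI3 (elafin, an elastase inhibitor) had a log2 change of 0.88 ± 0.34 (SE, edgeR adjusted p = 0.11) and KLK5, a protease of skin shedding, one of -0.74 ± 0.30 (SE, edgeR adjusted p = 0.12). KRT80 and KRT81 had log2 changes of -0.18 ± 0.26 and 0.36 ± 0.32 (SE).

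Number 1 was compared with number 2 with treatment as a term, and 28 of the 33 tested members passed edgeR's test, 84.8%, where 37.3% of all tested genes were called. Higher in number 1 were 8 members, 24.2%, against 20.2% of all genes, and higher in number 2 were 20, 60.6%, against 17% of all genes. In 9 members both libraries of a number lay under the filter's cutoff of 0.495 CPM. These passed the filter only through the other number, which fixed the direction of their difference. They were KRT14, KRT4, KRT13, S100A7, S100A8 and PI3, low in number 1, and KRT81, SPRR1B and SPRR2D, low in number 2. The counts of called members are for that reason a description and no support for a difference between the numbers, and for these 9 the values are given without a p.

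All 4 simple epithelial keratins were higher in number 1. KRT19 was at 255 and 319 CPM in rapamycin 1 and control 1 and at 2.03 and 2.24 in rapamycin 2 and control 2, a log2 difference of 7.06 ± 0.34 (SE, edgeR adjusted p = 2.8e-15). KRT7 differed by 5.11 ± 0.31, KRT18 by 2.44 ± 0.29 and KRT8 by 1.55 ± 0.27 (log2, SE). The keratin with the widest gap was KRT81, a hair keratin, at 1016 and 725 CPM in number 1 and at 0.439 and 0.465 in number 2 (8 and 11 counts), a fitted log2 difference of 10.86 ± 0.42 (SE). SPRR2D had 51 and 38 counts in number 1 and 0 in number 2, which with a floor of 3 counts per library made it at least 15.2-fold higher in number 1. KLK5 and IVL completed the 8, and the call of IVL was lost with DESeq2 (adjusted p = 0.24).

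All 3 basal keratins and all 3 tested stress keratins were higher in number 2, but KRT14 passed the filter only through number 2. KRT15 was at 18.1 and 20.8 CPM in number 1 and at 2603 and 2504 in number 2, a log2 difference of -7.04 ± 0.34 (SE, edgeR adjusted p = 3.3e-15). KRT17 was at 5.05 and 4.89 CPM in number 1 and at 2119 and 1346 in number 2, with a log2 difference of -8.41 ± 0.37 (SE, edgeR adjusted p = 4.8e-16). KRT14, at 0 counts in number 1, was at least 35.8-fold higher in number 2. Of the suprabasal oral pair, KRT13 was at 0.473 and 0.369 CPM in number 1 and at 248 and 633 in number 2, with a fitted log2 difference of -9.92 ± 0.44 (SE). KRT4 had 1 count in number 1, and the ratio of number 2 to number 1 was 261 with a 95% exact interval of 46.5 to 10350 that covers counting error only.

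The 4 S100 members were higher in number 2 as well, but S100A7 and S100A8 passed the filter only through number 2. S100A9 was at 1.10 and 0.508 CPM in number 1 and at 420 and 184 in number 2, with a log2 difference of -8.53 ± 0.37 (SE, edgeR adjusted p = 4.8e-16). S100A8, its partner, had 2 counts in number 1 and a ratio of 476 with a 95% exact interval of 131 to 3933. S100A7 (psoriasin), at 0 counts in number 1, was at least 26.7-fold higher in number 2. PI3 was at 0.210 and 0.0924 CPM in number 1 (4 and 2 counts) and at 216 and 119 in number 2, with a fitted log2 difference of -10.07 ± 0.44 (SE). Of the 7 tested desmosome genes, 6 were higher in number 2, by smaller amounts that ranged from -0.68 for JUP to -2.04 for DSC3 on the log2 scale. The call of JUP was lost with upper-quartile normalization (adjusted p = 0.066). The members that did not pass were DSP, KRT80, KRT10, CNFN and SPRR1B.

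**Figure D3:**
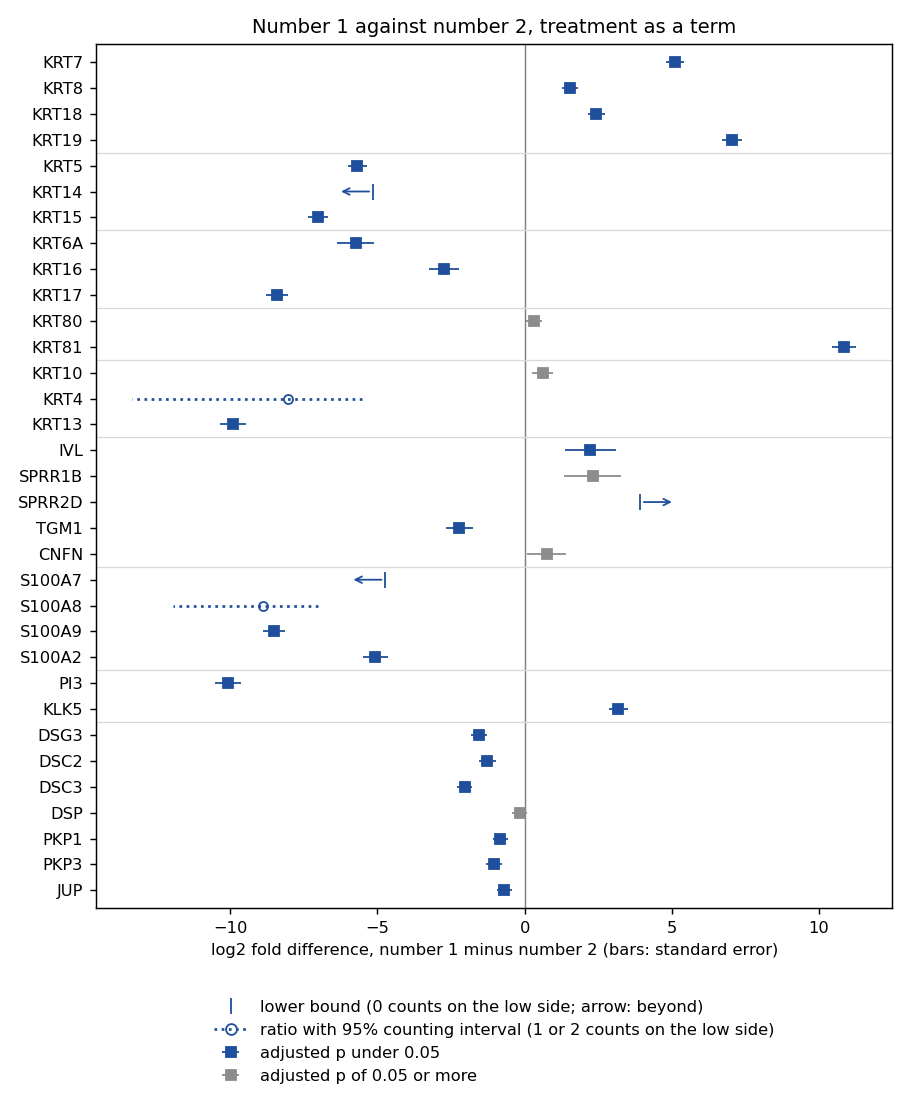
Log2 difference of the 33 tested members, number 1 minus number 2, with treatment as a term. Squares are fitted values with their standard error, bars with arrows are lower bounds for genes with 0 counts on the low side, and open circles with dotted lines are ratios with a 95% counting interval for genes with 1 or 2 counts there, and genes under the filter's cutoff in a number are included. Simple keratins and KRT81 lie to the right of 0, basal and stress keratins, KRT13, the S100 genes and PI3 lie to the left, and the desmosome genes lie within -2.04 and 0.

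The members lie in gene clusters. The type II keratins and KRT18, 12 members in all, are on chromosome 12, and the other 7 type I keratins are on chromosome 17 beside JUP. Within the chromosome 12 cluster, which spans 52168996-52952906, KRT7, KRT8, KRT18 and KRT81 were higher in number 1 and KRT5, KRT6A and KRT4 in number 2. On chromosome 17, KRT19 was higher in number 1, whereas KRT13, KRT14, KRT15, KRT16 and KRT17 were higher in number 2. KRT81, KRT4, KRT13 and KRT14 lay under the filter's cutoff in both libraries of a number, which fixed their direction, and KRT80 and KRT10 were not called. Without these, KRT7, KRT8 and KRT18 differed in the opposite direction to KRT5 and KRT6A on chromosome 12. On chromosome 17, KRT19 differed in the opposite direction to KRT15, KRT16 and KRT17.

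Other genes of epidermal differentiation were taken from 8 lists of keratins, envelope genes, proteases, junctions, basal attachment, S100 proteins and barrier lipid enzymes. Of 106 genes, 68 were tested, 3 were lower with rapamycin (4.41%, against 3.5% of all tested genes) and 3 were higher (4.41%, against 4.65%). These shares lie near those of all genes, and the median log2 change was -0.0043. The lower ones were SERPINB13, a serpin of squamous epithelium, and the S100 genes S100A10 and S100A16. SERPINB13 was at 2.03 CPM in rapamycin 2, 12.3 in control 2 and 0 in number 1. S100A10 was at 217 CPM in rapamycin 1, 350 in control 1, 70.1 in rapamycin 2 and 185 in control 2, a log2 change of -1.04 ± 0.27 (SE, edgeR adjusted p = 0.016). S100A16 had a log2 change of -0.94 ± 0.29 (SE, edgeR adjusted p = 0.044).

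Those that rose were KRT86, a hair keratin, LAMB3, a chain of the laminin of the basement membrane, and the tight junction claudin CLDN7. LAMB3 was at 3344 CPM in rapamycin 1, 1330 in control 1, 970 in rapamycin 2 and 460 in control 2, with a log2 change of 1.203 ± 0.27 (SE, edgeR adjusted p = 0.0068). CLDN7 was at 205, 113, 36.2 and 12.8 CPM in the same order, with a log2 change of 1.17 ± 0.27 (SE, edgeR adjusted p = 0.0079). KRT86 was at 48.1, 27.3, 24.0 and 4.14 CPM, with a log2 change of 1.64 ± 0.39 (SE, edgeR adjusted p = 0.018). KRT86 and the member KRT81 are close copies that could share reads, and KRT81 did not pass the test. Between the numbers, 51 of the 68 passed (75.0%, against 37.3% of all tested genes), 23 higher in number 1 and 28 higher in number 2. In 11 of the 68, both libraries of a number lay under the filter's cutoff, which fixed their direction, so that the count is a description. By the fitted difference, which against 0 counts is no measure of size, the first genes in order were CALML3, SERPINB13, SERPINB3 and SERPINB4 on the number 2 side and SERPINB2, MAL, TCHH and ECM1 on the number 1 side, and all of them but ECM1 are among those 11. MAL was at only 0.526 and 0.646 CPM in number 1 and 0 in number 2. CALML3, a calmodulin-like protein of epithelium, was at 0 CPM in number 1 and at 17.8 and 28.3 in number 2. SERPINB3 and SERPINB4 are near-identical copies, so reads may be split between them. ECM1 was at 23.5 and 21.2 CPM in number 1 and at 0.933 and 1.06 in number 2.

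MeRIP-seq gave 1 peak list for each cell line and treatment, each from 1 immunoprecipitated library and its input, so that no m6A value has a replicate and no test was made. m6A is deposited on mRNA mostly near stop codons and in long internal exons. A peak was assigned to a member by its Ensembl identifier in the list, and 15 peaks fell on 8 of the 45 members, 8 in coding sequence and 7 in 3′UTRs. Of the 33 members with tested mRNA, 3 had a peak in HSC3 control (9.09%, against 17.6% of all tested genes), 4 in HSC3 with rapamycin (12.1%, against 17.5%), 3 in CAL33 control (9.09%, against 16.1%) and 3 in CAL33 with rapamycin (9.09%, against 14.2%). In any of the 4 lists, 7 of the 33 had a peak (21.2%, against 35.4% of all tested genes). Peak calls depend on the level of the transcript and on depth, which is unknown for these libraries. None of the 6 members that changed with rapamycin had a listed peak.

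KRT80, a type II keratin, was the member with most peaks. In HSC3 control it had 2 peaks in its 3′UTR, at chr12:52170226-52170406 with a fold enrichment over input of 32.5 and at chr12:52171245-52171515 with 33.6. The second was overlapped by a peak of HSC3 with rapamycin at chr12:52171156-52171425 with a fold enrichment of 5.25, and by a peak of CAL33 with rapamycin at chr12:52171185-52171365 with 6.85. CAL33 control listed none on this gene. The fold enrichment was thus lower in the HSC3 list with rapamycin than in the control list, while KRT80 mRNA was at 229 to 349 CPM in the 4 RNA-seq libraries.

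DSP had a peak in coding sequence in 3 lists, all overlapping. HSC3 control listed chr6:7581333-7581512 with a fold enrichment of 1.99, HSC3 with rapamycin chr6:7581183-7581512 with 5.51 and CAL33 control chr6:7581333-7581542 with 6.59. DSG3, the desmosomal cadherin of basal layers, had peaks in coding sequence in HSC3 with rapamycin (chr18:31475656-31475865, fold enrichment 213) and CAL33 control (chr18:31475686-31475955, fold enrichment 11.6), which overlapped by 180 bp. KRT7 had a peak in CAL33 control (chr12:52235188-52235337, 8.51) and another in CAL33 with rapamycin (chr12:52243017-52243167, 16.1), which did not overlap. The latter had a listed false discovery rate of 0.142.

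The remaining 4 members had a peak in 1 list each. DSC3 had a fold enrichment of 286 in its 3′UTR in HSC3 control (chr18:30991114-30991323), above 93.3% of that list's peaks. DSC2 had 11.8 in its 3′UTR in HSC3 with rapamycin (chr18:31067915-31068095). PI3 had 9.38 in its 3′UTR in CAL33 with rapamycin (chr20:45176400-45176544). The list of HSC3 control also held a peak in the coding sequence of KRT1 (chr12:52677742-52678627, spliced to 151 bp) with a fold enrichment of 11.2, a p of 0.029 and a false discovery rate of 0.245, on a gene with 0 counts in all RNA-seq libraries. Except for DSC3 and the DSG3 peak of HSC3 with rapamycin, member peaks lay at or below the median fold enrichment of their lists, which was 33.3 to 42.6.

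**Figure D4:**
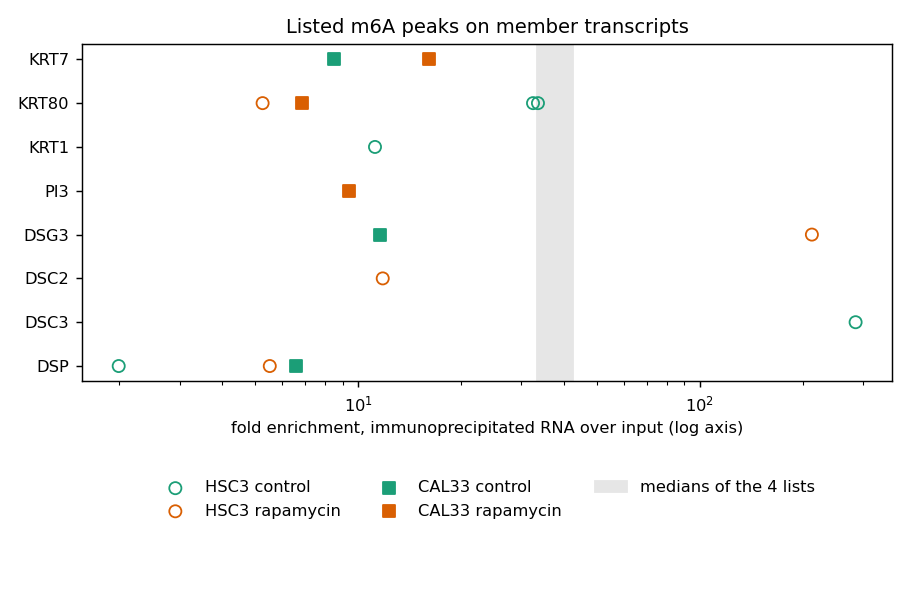
Fold enrichment of the 15 listed m6A peaks on member transcripts, on a log axis, by gene (vertical axis) and list (circles HSC3, squares CAL33, green control, orange rapamycin). The grey band spans the median fold enrichment of the 4 lists, 33.3 to 42.6, and DSG3 at 213 and DSC3 at 286 lie to its right while the other peaks lie on its left edge or below it.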

How the data were processed

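RNA-seq of 4 libraries and MeRIP-seq of 8 libraries were analysed from the files that the authors deposited. For RNA-seq the authors deposited raw HTSeq counts per Ensembl gene, and 57532 of the 58302 identifiers carried a symbol. LOR was matched under its current symbol. The deposited MeRIP-seq files were 1 peak list per pair of libraries, in which each peak had a fold enrichment (the ratio of immunoprecipitated RNA to input) and the log10 of its p-value and of its false discovery rate. The submitters' processing notes name hg38, cutadapt 2.5, HISAT2 2.1.0, featureCounts 1.6.3 and HOMER 4.10.4, and the peak caller is not given in the sources used here. The lists' positions are printed counted from 1. The RNA kit was stranded, and the use of strand in counting is not stated. Sequences and gene positions came from RefSeq (GRCh38.p14).

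Counts were filtered by filterByExpr (15826 genes kept), scaled by TMM and tested with edgeR 4.0.16 in R 4.3.3 across all genes with terms for number and treatment, at a Benjamini-Hochberg adjusted p under 0.05. SE is the absolute log2 change over the root of the F statistic. CPM values are TMM-scaled, except the filter's cutoff and the limit for members with 0 counts in all libraries, which use total counts. A gene at 0 counts was given a floor of 3 counts per library, and intervals (scipy 1.17.1) cover counting error only. Scripts were tested on simulated data. The members, lists and tests were chosen with earlier results of these data known.

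The pairing by number came from the MeRIP-seq labels and not from the RNA-seq labels. The difference between numbers correlated between treatments (r = 0.90 over 15826 genes, which are not independent), and the common dispersion was 0.061 with the block and 0.636 without it. Peaks overlapped when they shared at least 1 bp of exonic block on 1 strand. Values are given for each member that changed with rapamycin, for the 12 members with the largest differences between numbers, for members with peaks in 2 or more lists, and for up to 4 other genes per comparison and direction. Alternatives were other size factors, DESeq2 1.42.0, other filters, no block, number alone, KRT6 copies summed, each library left out, stricter peak thresholds, a larger overlap and matching by symbol.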

Additional observations from a re-analysis of the deposited data

Results flagged for a closer look

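Among the 25 tested members with at least 3 counts in every library, 7 (28.0%) moved in opposite directions with rapamycin in the numbered pairs, and so did 30.7% of the 14298 tested genes with such counts. Each pair holds 1 library per treatment, so the difference between the pairs was not tested. KRT16 changed by -0.075 within number 1 and by 1.88 within number 2 on the log2 scale. KRT13 changed by 0.35 and -1.35, and TGM1 by 1.04 and -0.88. KRT18 changed by -0.16 and 0.70. The other 3 had smaller changes, with -0.20 and 0.056 for KRT15, 0.11 and -0.47 for KRT80, and 0.49 and -0.082 for KRT81.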

How the results depend on the processing

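Of 33 tested members, 6 changed with rapamycin, and the count was 5 or 6 with RLE or upper-quartile factors, DESeq2 or summed KRT6 copies. With no replicate block it was 0, with 0 higher and 0 lower, 0 of the 68 other genes and 0 of all tested genes. With no filter on low counts, 8 members were lower, with KRT8, KRT13 and PKP3 added, and with at least 10 counts in every library 3 of 22 changed, 2 of them lower, since KRT14, KRT6A and KRT4 were then not tested. DESeq2 called 818 genes in all against 1290, and gave no adjusted p to 7 members, KRT14 and KRT4 among them. Between numbers the filter of 10 counts left 17 members, 5 higher in number 1 and 12 in number 2, and 3927 genes, and number alone gave 3057 genes against 5899 and 22 members, without PKP1, PKP3, JUP, DSC2, IVL and KRT6A. Directions reversed for KRT15 (0.0065 with upper-quartile factors, 0.054 with no block), TGM1 (-0.018 with no filter, -0.53 with no block) and KRT18 (-0.029 with no block), none of which passed the test, and the cause was not tested. The call of KRT4 rests on number 2: over the libraries left out in turn its log2 change ranged from -3.25 to 3.33, the positive values coming from 1 count against 0. Leaving out a library turned the direction of no other called member in either comparison. KRT14 kept no direction with rapamycin once rapamycin 2 or control 2 was left out. Its log2 change was then 0, since both number 1 libraries had 0 counts. At a fold enrichment of at least 4, 1 HSC3 member peak with rapamycin overlapped a control peak in place of 2, and 0 in place of 1 overlapped between the control lists of the cell lines, as the DSP peak of 1.99 was then left out. The number of members with a peak stayed within 1 of its value in each list. With 2 libraries per treatment and unknown depth of the m6A libraries, small differences could not be detected.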
